A study of Mus musculus with 28 samples.

Results

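The CREB family genes examined here were Creb1, Crem, Atf1, Atf2, Atf3 and Atf4, which encode transcription factors, together with Crtc1, Crtc2 and Crtc3, which encode their coactivators, and Sik1, which encodes a kinase that acts on those coactivators. These 10 genes were chosen by name, and all 10 were found among the 22919 genes listed in the comparison tables and among the 21192 genes with a p-value. Nascent RNA had been measured by Bru-seq, in which living cells take up bromouridine and the labelled RNA is captured and sequenced, so that the reads report recent transcription rather than stored mRNA. The 16 libraries came from mouse forebrain cultures of cortex and hippocampus, prepared from pooled CD1 embryos at embryonic day 18 and holding neurons, astrocytes and oligodendrocyte precursor cells. On day in vitro 14 all cultures received a lentivirus, either with a control shRNA (shCtrl) or with an shRNA against Rai1 (shRai1), a gene for a chromatin-binding protein. On day 17 they were treated for 4 h with water as vehicle, with 1 µM tetrodotoxin (TTX), which blocks voltage-gated sodium channels and so silences spiking, or with 20 µM bicuculline (BIC), which blocks GABA-A receptors and so raises network activity. Bromouridine was present at 2 mM for the last 20 min. The shCtrl groups with vehicle and with BIC had 2 libraries each and the other 4 groups had 3 each.

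CREB proteins bind the cAMP response element (CRE) as dimers and are switched on by phosphorylation when calcium or cAMP rises, which in neurons couples synaptic activity to transcription. CRTC proteins are held in the cytoplasm while they are phosphorylated by salt-inducible kinases such as SIK1, and move to CREB in the nucleus once calcineurin removes the phosphate. Several genes of the pathway, among them Crem, Atf3 and Sik1, are known as targets of CREB and as brakes on it.

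Promoter sequences are shown for the genes whose windows held the core letters of the CRE, because the group both reads this element and can be controlled through it. RefSeq promoter windows of 300 bases (250 before and 50 after the start, GRCm38.p6) were found for 7 of the 10 genes, namely Creb1, Atf1, Atf2, Atf3, Atf4, Crtc1 and Crtc3. Each window was searched on both strands for the CRE core TGACG, for the full CRE TGACGTCA, which also contains the core, and for the AP-1 site TGANTCA. The core was present in 3 of the 7 windows (Atf1, Atf3 and Atf4) and in 20.8% of all 32851 promoters in the table. The full CRE was in 0 of the 7 and in 1.79% of all promoters, and the AP-1 site was in 0 of the 7 and in 7.81%. In the lines that follow capitals mark the core, written CGTCA where it lies on the other strand, with the whole window for Atf3 and the stretch around each core for Atf1 and Atf4.
Atf3, chr1:191183284-191183583, minus strand: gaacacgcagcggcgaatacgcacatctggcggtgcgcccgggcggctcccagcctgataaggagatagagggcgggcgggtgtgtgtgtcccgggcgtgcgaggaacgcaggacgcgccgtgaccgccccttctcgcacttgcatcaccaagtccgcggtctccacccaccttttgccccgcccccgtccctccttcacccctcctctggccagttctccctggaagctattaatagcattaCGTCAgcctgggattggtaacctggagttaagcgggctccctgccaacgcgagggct
Atf1, chr15:100227739-100227803, plus strand: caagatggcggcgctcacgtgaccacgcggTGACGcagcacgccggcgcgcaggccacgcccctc
Atf4, chr15:80255142-80255233, plus strand: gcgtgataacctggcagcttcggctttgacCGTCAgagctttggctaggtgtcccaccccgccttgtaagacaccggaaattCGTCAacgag
The core began 7 bases before the start in Atf3 and 90 bases before it in Atf1, and Atf4 held 1 core 12 bases before its start and a further 1 after it. A match is a description of the letters, and the windows without a match show only that these letters are not in them. No factor binding was examined here.

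Levels differed widely among the 10 genes. The authors' FPKM is a pooled value per condition, scaled by gene length and sequencing depth, and it is given with the bounds of their file and no replicate error. In shCtrl with vehicle Atf4 stood at 223 FPKM (171 to 274), Sik1 at 39.2 (29.98 to 48.4) and Atf2 at 31.2 (23.9 to 38.6). Below these came Atf1 at 20.9, Crtc3 at 17.8, Atf3 at 16.0 and Crtc1 at 15.8, and then Crem at 8.25, Crtc2 at 7.41 and Creb1 at 6.23. Only Atf4 and Sik1 had bounds apart from each other among neighbours in this order. With TTX the order ran from Atf4 at 138 FPKM to Atf3 at 1.60, and the bounds of neighbours were apart between Atf4 and Atf2 and between Crtc2 and Creb1. With BIC, Atf4 led again at 261 FPKM, followed by Sik1 at 71.2 and Atf3 at 69.1, and the bounds were apart between Atf4 and Sik1 and between Atf3 and Atf2. Atf3 thus had the lowest value of the 10 genes in silenced cultures and the third highest in disinhibited ones, where its bounds overlapped those of Sik1. Below the top, the order depended on the scale. By the authors' mean normalized count per kb of gene interval, over all libraries, Crem was lowest at 5.87 and Creb1 stood at 19.3, whereas their mean FPKM over conditions was 8.51 and 5.56. The ratio of that count per kb to the mean FPKM was 0.690 for Crem and 0.842 for Atf2, against 1.66 to 4.39 for the other 8 genes.

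**Figure D1:**
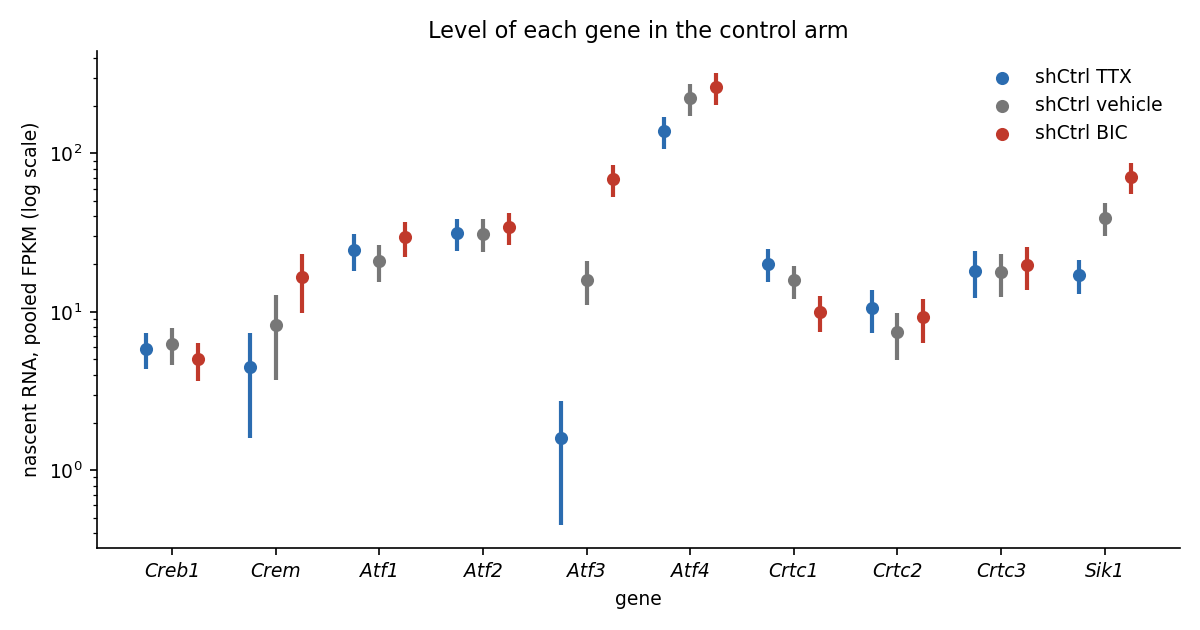
Level of each gene in the control arm as the authors' pooled FPKM on a log axis, with points for TTX, vehicle and BIC and vertical lines for the bounds of the file. Atf3 runs from 1.60 FPKM with TTX to 69.1 with BIC, while Creb1, Atf1, Atf2, Crtc2 and Crtc3 keep overlapping bounds in all 3 conditions.

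Silencing by TTX lowered 4 of the 10 genes in shCtrl (Crem, Atf3, Atf4 and Sik1) and raised 1 (Crtc1). Over all 15464 genes that the authors adjusted, 14.9% were called lower and 11.8% higher, at an adjusted p under 0.05 in DESeq2's Wald test as deposited. In shRai1 TTX lowered 5 genes, the same 4 and Atf1, and raised 0, beside 16.8% lower and 13.7% higher over all genes. BIC raised 5 genes in shCtrl (Crem, Atf1, Atf3, Crtc3 and Sik1) and lowered 1 (Crtc1), beside 17.4% higher and 17% lower of 16692 genes. In shRai1 BIC raised 5 (Crem, Atf1, Atf3, Atf4 and Sik1) and lowered 1 (Crtc1), beside 21.3% higher and 21.3% lower of 17510 genes. The median log2 change of the 10 genes was -0.04 for TTX and 0.21 for BIC in shCtrl, and -0.17 and 0.22 in shRai1, where the median of all genes lay between -0.02 and 0.00. TTX and BIC were each compared with the same vehicle libraries of an arm, so their values are not independent and stand side by side here. In a whole culture fewer cells of a type and less RNA per cell cannot be told apart.

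**Figure D2:**
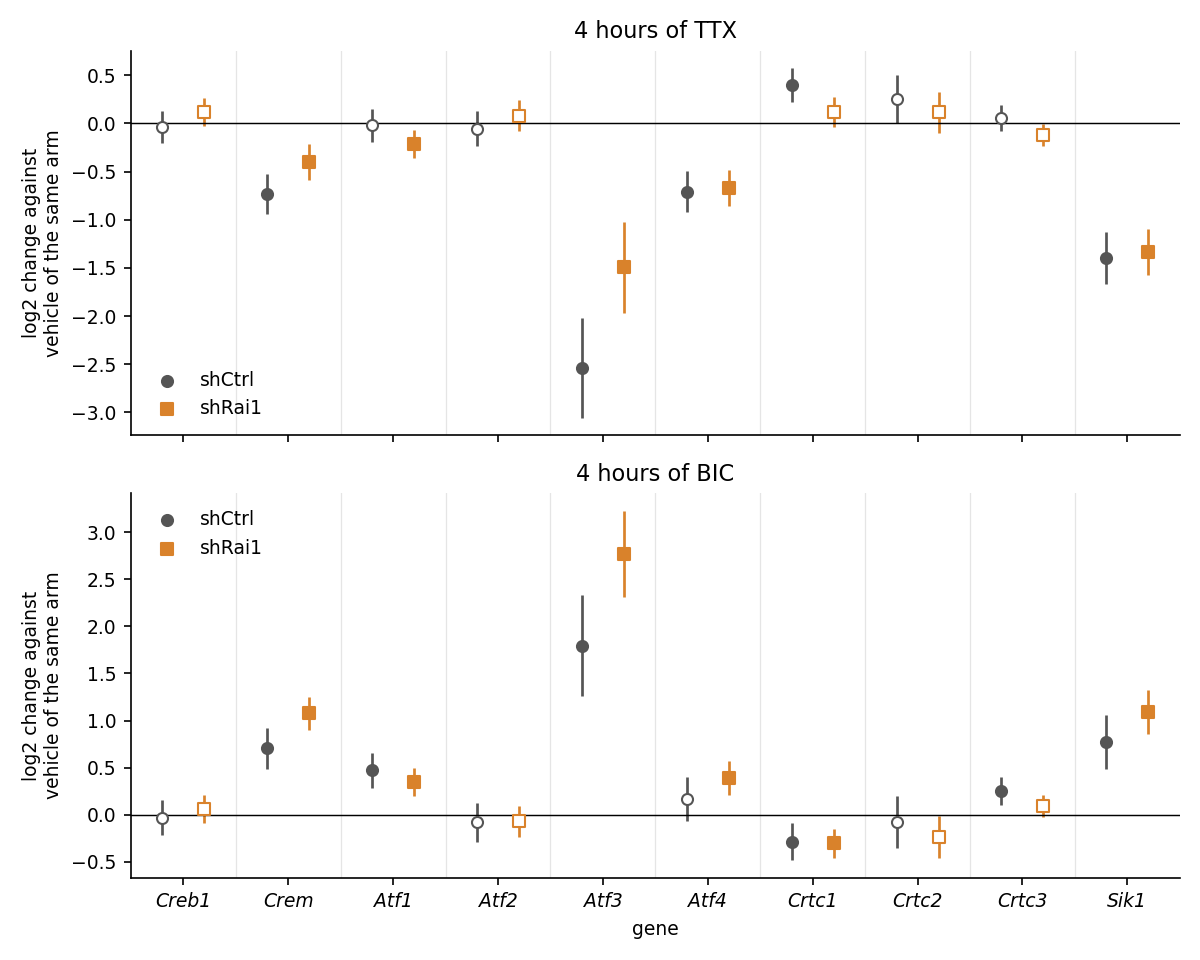
Log2 change with its 95% interval for each gene after 4 h of TTX (top) and 4 h of BIC (bottom) against vehicle of the same arm, circles for shCtrl and squares for shRai1, filled where the adjusted p was under 0.05. Atf3 and Sik1 lie lowest with TTX and Crem, Atf3 and Sik1 highest with BIC in both arms, while Creb1 and Atf2 are open symbols throughout.

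Creb1 (chr1:64579378-64651122, mm9), the founding activator of the family, had the lowest pooled FPKM in vehicle and did not pass the test with either drug. Its pooled FPKM was 6.23 with vehicle, 5.86 with TTX and 5.02 with BIC, with overlapping bounds. In shCtrl its log2 change in the authors' deposited table was -0.04 with TTX (95% interval -0.20 to 0.13, adjusted p = 0.819) and -0.03 with BIC (-0.22 to 0.15, adjusted p = 0.838), the latter turning to 0.01 once changes were centred on the median gene. In shRai1 the authors' deposited tables gave 0.11 with TTX (-0.03 to 0.26) and 0.06 with BIC (-0.08 to 0.21). These intervals leave room for a change of up to about 0.26 on the log2 scale.

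Crem (chr18:3266352-3366861, mm9) encodes both activators and repressors of CRE-driven transcription, including the short repressor ICER, which starts at a promoter inside the gene. Values for the whole gene do not separate these products. Pooled FPKM was 8.25 (3.72 to 12.8) with vehicle, 4.48 (1.59 to 7.37) with TTX and 16.6 (9.90 to 23.3) with BIC, so the TTX and BIC bounds were apart and both overlapped vehicle. With TTX Crem fell by 0.73 (SE 0.11, adjusted p = 2.01e-10) in shCtrl and by 0.40 (SE 0.10, adjusted p = 2.15e-04) in shRai1 on the log2 scale of the authors' deposited tables. With BIC it rose by 0.70 (SE 0.11, adjusted p = 4.32e-09) in shCtrl and by 1.08 (SE 0.09, adjusted p = 8.31e-32) in shRai1 in the authors' deposited tables, or 1.63-fold and 2.11-fold. The listed gene Gm6225 overlaps its interval.

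Atf1 (chr15:100058290-100091679, mm9), a close relative of CREB1 that pairs with it, was called higher with BIC in both arms. Pooled FPKM was 20.9 (15.4 to 26.4) with vehicle, 24.6 (18.2 to 30.9) with TTX and 29.7 (22.3 to 37.0) with BIC, all with overlapping bounds. BIC raised Atf1 by 0.47 (SE 0.10, adjusted p = 6.03e-06) in shCtrl and by 0.35 (SE 0.07, adjusted p = 1.50e-05) in shRai1 in the authors' deposited tables. With TTX the authors' deposited table for shCtrl gave -0.02 (adjusted p = 0.905), while that for shRai1 gave a fall by 0.22 (SE 0.08, adjusted p = 0.0181). Averaged over arms the TTX response was -0.12 (SE 0.06) and did not pass the test (adjusted p = 0.106, Wald test with Benjamini-Hochberg adjustment).

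Atf2 (chr2:73654566-73730696, mm9), which is phosphorylated by stress-activated kinases and also pairs with JUN proteins, also passed no drug test in either arm. Pooled FPKM was 31.2 with vehicle, 31.3 with TTX and 34.4 with BIC. The 4 log2 changes in the authors' deposited tables lay between -0.08 and 0.08, and their adjusted p-values were 0.742 and 0.606 in shCtrl and 0.533 and 0.526 in shRai1 for TTX and BIC.

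Atf3 (chr1:192994176-193007212, mm9), a stress- and activity-induced factor that acts largely as a repressor when it pairs with itself, had the widest range of the 10 genes. Pooled FPKM was 16.0 (11.0 to 20.9) with vehicle, 1.60 (0.449 to 2.75) with TTX and 69.1 (53.4 to 84.9) with BIC, with bounds apart between all 3 conditions. With TTX Atf3 fell by 2.54 (SE 0.26, adjusted p = 5.25e-20) in shCtrl, or 5.81-fold, in the authors' deposited table. It ranked 17 from the bottom among 12333 genes whose mean normalized count reached 50. In shRai1 it fell by 1.50 (SE 0.24, adjusted p = 9.98e-09), or 2.82-fold, in the authors' deposited table. With BIC it rose by 1.80 (SE 0.28, adjusted p = 1.03e-09) in shCtrl and by 2.77 (SE 0.23, adjusted p = 6.83e-31) in shRai1, or 3.47-fold and 6.83-fold, in the authors' deposited tables. The log2 ratio of pooled FPKM was larger in size in shCtrl for both drugs, at -3.24 for TTX and 2.11 for BIC with a pseudocount of 0.1.

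Atf4 (chr15:80085614-80087975, mm9), the main effector of the integrated stress response, whose protein is governed largely by translation, had the highest pooled FPKM of the 10 genes and was called lower with TTX in both arms. Pooled FPKM was 223 (171 to 274) with vehicle, 138 (107 to 169) with TTX and 261 (202 to 320) with BIC, and only the TTX and vehicle bounds, and those of TTX and BIC, were apart. With TTX Atf4 fell by 0.71 (SE 0.11, adjusted p = 1.18e-09) in shCtrl and by 0.67 (SE 0.10, adjusted p = 4.87e-11) in shRai1 in the authors' deposited tables. With BIC the authors' deposited tables gave 0.16 (SE 0.12, adjusted p = 0.312) in shCtrl and a rise by 0.39 (SE 0.09, adjusted p = 1.35e-04) in shRai1.

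Among the 3 coactivator genes, shCtrl calls were made for Crtc1 with both drugs, for Crtc3 with BIC and for Crtc2 with neither. Crtc1 (chr8:72906257-72963472, mm9), the main CRTC of neurons, was the only gene of the 10 called lower with BIC, and it was called lower in both arms. Its pooled FPKM was 15.8 (12.1 to 19.6) with vehicle, 20.1 (15.5 to 24.8) with TTX and 10.01 (7.48 to 12.5) with BIC, so TTX and BIC had bounds apart. With TTX Crtc1 rose by 0.39 (SE 0.09, adjusted p = 1.18e-04) in shCtrl in the authors' deposited table, and its value in shRai1 was 0.11 (SE 0.08, adjusted p = 0.301). With BIC it fell by 0.29 (SE 0.10, adjusted p = 0.0175) in shCtrl and by 0.31 (SE 0.08, adjusted p = 4.72e-04) in shRai1 in the authors' deposited tables. The shCtrl call was lost, with an adjusted p of 0.0515, once changes were centred on the median gene. Crtc2 (chr3:90058203-90068047, mm9), studied most for its role in liver metabolism, passed no drug test in either arm. Its pooled FPKM was 7.41 with vehicle, 10.6 with TTX and 9.23 with BIC, and its values with TTX in the authors' deposited tables were 0.25 (adjusted p = 0.130) and 0.11 (adjusted p = 0.488) in shCtrl and shRai1. With BIC the authors' deposited tables gave Crtc2 -0.08 (adjusted p = 0.728) and -0.24 (adjusted p = 0.0814), and the pooled FPKM ratio had the other sign in shCtrl, at 0.31. Crtc3 (chr7:87731518-87833763, mm9; the listed gene Gm15880 overlaps it) rose with BIC in shCtrl by 0.25 (SE 0.08, adjusted p = 5.20e-03) in the authors' deposited table. In shRai1 the authors' deposited table gave Crtc3 0.09 with BIC (SE 0.06, adjusted p = 0.235), and its values with TTX were 0.05 and -0.12, with adjusted p-values of 0.648 and 0.121.

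Sik1 (chr17:31981195-31992737, mm9), the kinase gene, followed activity in both directions. Pooled FPKM was 39.2 (29.98 to 48.4) with vehicle, 17.1 (13.0 to 21.3) with TTX and 71.2 (55.2 to 87.2) with BIC, with bounds apart between all 3 conditions. With TTX Sik1 fell by 1.40 (SE 0.14, adjusted p = 7.86e-23) in shCtrl and by 1.33 (SE 0.12, adjusted p = 1.90e-26) in shRai1, or 2.63-fold and 2.52-fold, in the authors' deposited tables. With BIC it rose by 0.77 (SE 0.15, adjusted p = 1.30e-06) in shCtrl and by 1.09 (SE 0.12, adjusted p = 2.66e-19) in shRai1, or 1.71-fold and 2.13-fold, in the authors' deposited tables.

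The most precise estimate of each drug's effect was its mean over the arms, tested here with a Wald test and Benjamini-Hochberg adjustment over 18241 genes. TTX then lowered Crem, Atf3, Atf4 and Sik1 and raised Crtc1, that is 4 lower and 1 higher of 10, beside 17.5% lower and 15.5% higher of all genes. BIC raised Crem, Atf1, Atf3, Atf4, Crtc3 and Sik1 and lowered Crtc1, that is 6 higher and 1 lower, beside 22.4% higher and 23.6% lower. This background takes in genes down to a mean FPKM of 0.1, while the lowest mean FPKM among the 10 was 5.56 (Creb1). Genes of low level are harder to call, and a share among genes of like level was not computed. Averaged over arms Atf4 rose with BIC by 0.28 (SE 0.08, adjusted p = 8.11e-04) and Crtc3 by 0.17 (SE 0.05, adjusted p = 1.62e-03). Creb1 stood at 0.04 (95% interval -0.07 to 0.15) with TTX and at 0.01 (-0.10 to 0.13) with BIC, and Atf2 at 0.01 (-0.11 to 0.13) and -0.08 (-0.21 to 0.05).

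The span from silenced to disinhibited cultures was taken as the BIC response minus the TTX response of an arm, with the standard error at its upper bound because the vehicle libraries are shared. In shCtrl 5 genes were higher with BIC than with TTX (Crem, Atf1, Atf3, Atf4 and Sik1) and 1 was lower (Crtc1), beside 17.1% higher and 15.3% lower of all genes. In shRai1 there were 6 higher, these 5 and Crtc3, and 1 lower (Crtc1), beside 20.3% and 19.3%. Atf3 spanned 4.33 (SE 0.38, adjusted p = 4.31e-28) in shCtrl and 4.27 (SE 0.34, adjusted p = 2.45e-35) in shRai1, about 20.2-fold and 19.3-fold. Sik1 spanned 2.17 (SE 0.20, adjusted p = 1.22e-25) and 2.42 (SE 0.17, adjusted p = 3.53e-45), and Crem spanned 1.43 (SE 0.15, adjusted p = 5.61e-19) and 1.48 (SE 0.13, adjusted p = 4.24e-28). Crtc1 ran the other way, at -0.68 (SE 0.14, adjusted p = 4.66e-06) and -0.42 (SE 0.11, adjusted p = 7.39e-04). Crtc2 was also lower with BIC in value, at -0.33 (SE 0.19, adjusted p = 0.191) and -0.35 (SE 0.16, adjusted p = 0.0662). With the shared vehicle variance taken out of the error, Crtc2 passed in both arms (adjusted p = 0.0229 and 0.00436) and Crtc3 passed in shCtrl too (adjusted p = 0.0126).

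**Figure D3:**
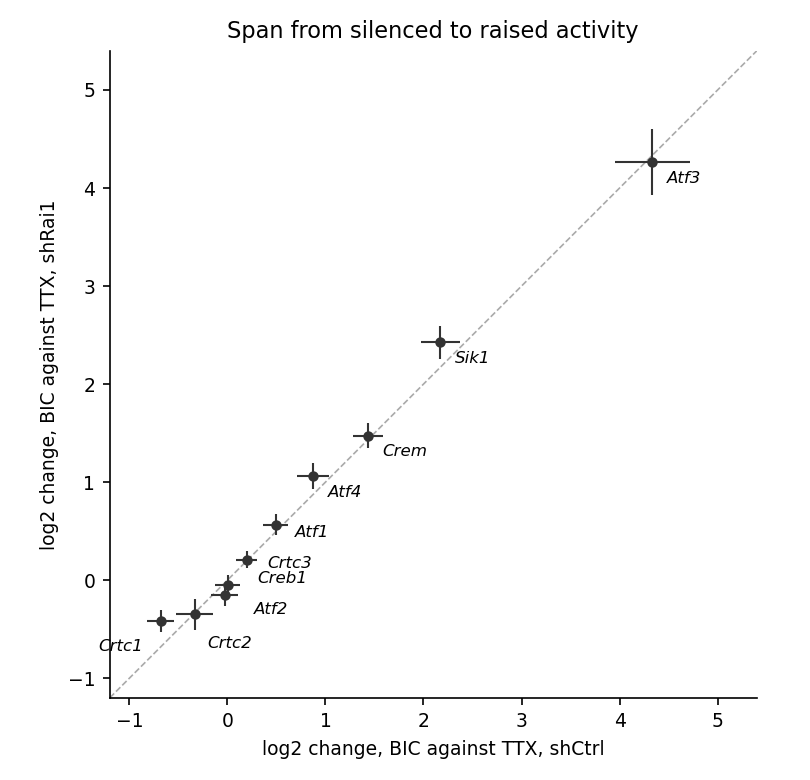
Log2 change of BIC against TTX for each gene in shCtrl (horizontal axis) and in shRai1 (vertical axis), with lines for 1 standard error and a dashed line of equal values. The points lie near the line, from Crtc1 at -0.68 and -0.42 to Atf3 at 4.33 and 4.27.

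Whether the shRai1 arm differed was asked within each treatment. Rai1 itself, the targeted gene, stood at 0.16 in vehicle, -0.12 with TTX and 0.03 with BIC in the authors' deposited tables and was called in 0 of the 3 (adjusted p = 0.357, 1.00 and 1.00). Its nascent RNA therefore gives no check of the arm labels, and every difference between arms rests on the label. Of the 10 genes 0 were called in the libraries labelled shRai1 against shCtrl in vehicle, where 0.857% of all 14237 adjusted genes were called. With TTX 0 of 10 were called, beside 0.0283% of all genes, and with BIC 0 of 10, beside 0.00944%. At an unadjusted p under 0.05 in DESeq2's Wald test as deposited, there were 2 of 10 in vehicle, beside 11.1% of the same 14237 genes. With TTX or BIC there were 0, beside 3.3% and 2.93%. A count of 2 in 10 is little above that background.

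The 2 were Atf3 and Crem. In vehicle Atf3 stood at -0.81 in shRai1 (SE 0.26, 95% interval -1.31 to -0.30, p = 0.00173, adjusted p = 0.114) in the authors' deposited table, and ranked 12 from the bottom of the same 12333 genes. Crem stood at -0.33 (SE 0.10, 95% interval -0.53 to -0.13, p = 0.00148, adjusted p = 0.101) in the authors' deposited table. With TTX and BIC the authors' deposited tables gave Atf3 0.24 (-0.25 to 0.72) and 0.17 (-0.33 to 0.67), and gave Crem 0.00 (-0.19 to 0.19) and 0.04 (-0.15 to 0.23). The values of Atf3 and Crem thus lay below 0 in vehicle alone. Sik1 stood at -0.09 (-0.35 to 0.17) in vehicle, -0.03 (-0.27 to 0.22) with TTX and 0.23 (-0.03 to 0.48) with BIC in the authors' deposited tables. For Creb1 the authors' deposited tables gave -0.12 (-0.29 to 0.04), 0.03 (-0.12 to 0.17) and -0.03 (-0.19 to 0.14). The coactivator genes lay between 0.10 and 0.23 in vehicle, between -0.11 and 0.09 with TTX and between -0.05 and 0.15 with BIC in the authors' deposited tables.

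**Figure D4:**
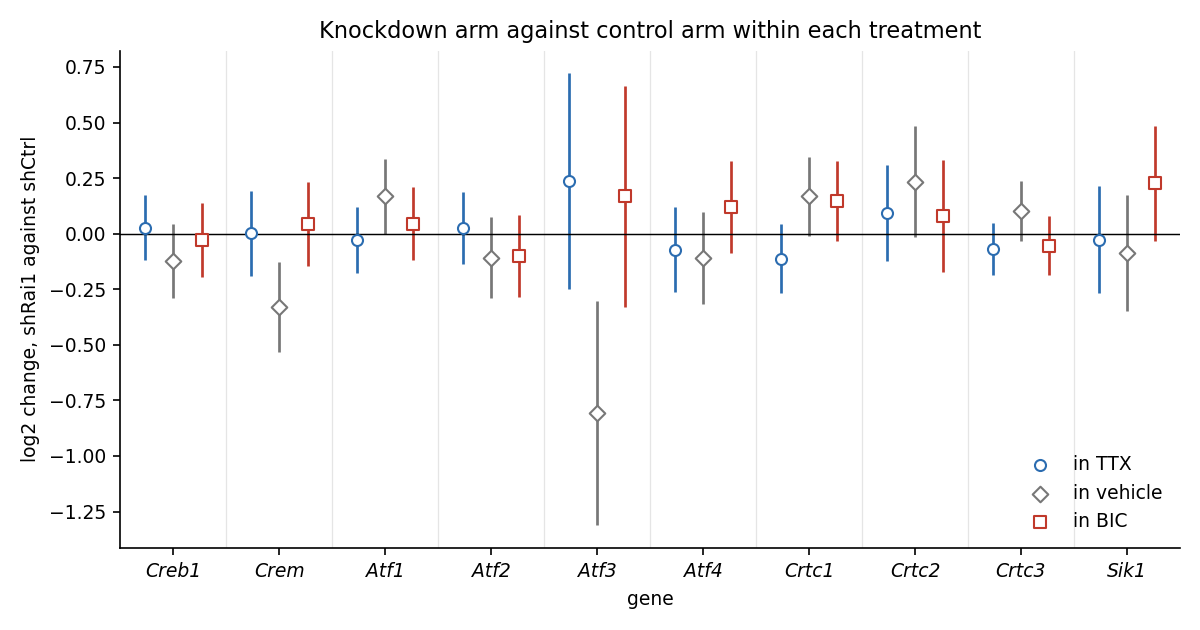
Log2 change of shRai1 against shCtrl for each gene within TTX (circles), vehicle (diamonds) and BIC (squares), with 95% intervals. All symbols are open, for values that did not pass an adjusted p of 0.05, and Atf3 in vehicle lies lowest, at -0.81.

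Whether a drug response differed between arms was tested by subtracting the shCtrl response from the shRai1 response. With TTX 0 of the 10 genes passed, beside 0.943% of 18241 genes (172 genes), and 3 had an unadjusted p under 0.05 by the Wald test, namely Crem, Atf3 and Crtc1, beside 9.05% of all genes. For BIC 0 of 10 passed, beside 0.0219% (4 genes), and 2 had an unadjusted p under 0.05, namely Crem and Atf3, beside 3.03%. The difference for Atf3 was 1.04 (SE 0.36, adjusted p = 0.163) with TTX and 0.98 (SE 0.36, adjusted p = 1.00) with BIC. That for Crem was 0.33 (SE 0.14, adjusted p = 0.386) and 0.37 (SE 0.14, adjusted p = 1.00), and that for Crtc1 with TTX was -0.28 (SE 0.12, adjusted p = 0.375). Both differences of a gene contain the same vehicle libraries. The span from TTX to BIC, which contains none of them, was compared between arms after the data were seen, and 0 of 10 genes passed, beside 0.181%. It differed by -0.07 (95% interval -0.76 to 0.63) for Atf3 and by 0.04 (-0.23 to 0.31) for Crem. Crtc1, at 0.26 (SE 0.12, adjusted p = 0.839), was the 1 gene of the 10 with an unadjusted p under 0.05, beside 5.26% of all genes, a share near the background.

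Among cell-type markers with an adjusted p, mainly those of oligodendrocyte precursors were called in the same vehicle comparison. In shCtrl with vehicle the 8 neuron markers ranged from 24.5 to 152 FPKM, the 6 astrocyte markers from 5.68 to 81.7 and the 5 oligodendrocyte precursor markers from 3.12 to 70.9, while the 3 endothelial markers stayed at or under 0.433 and the 5 microglia markers ran from 0.0763 to 14.7. Of the 5 oligodendrocyte precursor markers 4 were called lower in shRai1 with vehicle (median -0.78), 1 higher with TTX and 1 lower with BIC, in the authors' deposited tables. Of all genes 0.857%, 0.0283% and 0.00944% were called in these 3 comparisons. In the difference of TTX responses all 5 of these markers were called higher (median 1.16), and 1 of 8 neuron markers, Rbfox3, was called lower, at -0.40, beside 0.943% of all genes called. In the difference of BIC responses 0 of the 5 precursor markers were called by the Wald test (median 0.47), beside 0.0219% of all genes, and 2, Pdgfra and Olig1, had an unadjusted p under 0.05, beside 3.03%. Of the neuron markers 1 of 8 was called higher in shRai1 with vehicle. Of the 6 astrocyte markers 0 were called, with a median of -0.21 against -0.01 over all genes. Only 1 of 5 microglia markers and 1 of 3 endothelial markers had an adjusted p in that vehicle comparison, and neither was called. For these 2 cell types the comparison therefore shows little. The part of these shifts in the values of Atf3 and Crem was not tested. Averaged over arms, TTX called 1 of 5 oligodendrocyte precursor markers lower, 3 of 6 astrocyte markers lower and 1 higher and 3 lower of 8 neuron markers, and BIC called 1 lower, 1 lower, and 4 higher and 3 lower. Of all genes 15.5% were called higher and 17.5% lower with TTX and 22.4% and 23.6% with BIC, so that several of these counts are near the background. Of the 4 microglia markers tested TTX called 0 and BIC called 2 higher, Cx3cr1 at 0.76 and Csf1r at 0.86, and of the endothelial markers the 1 tested, Pecam1, was called higher with TTX, at 0.64. In shCtrl the summed FPKM with vehicle, TTX and BIC was 594, 524 and 589.5 for the neuron markers and 195, 159 and 148 for the astrocyte markers. It was 129, 92.0 and 108 for the oligodendrocyte precursor markers, 19.3, 20.1 and 28.1 for the microglia markers and 0.628, 0.772 and 0.518 for the endothelial markers, of which Cldn5 was listed at 0 with TTX and BIC. The part of these shifts in the drug responses of the 10 genes was not tested.

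The enzymes upstream of CREB moved in both directions. Of 20 genes for kinases, phosphatases and cAMP signalling, TTX averaged over arms lowered 11 and raised 3 (median -0.18, against 0.01 over all genes), and BIC raised 7 and lowered 9 (median -0.10, against -0.00324). The background for these averaged responses was 15.5% higher and 17.5% lower with TTX and 22.4% and 23.6% with BIC. Adcy8, a calcium-stimulated adenylyl cyclase, fell by 1.39 (SE 0.08, adjusted p = 2.60e-62) with TTX, and its pooled FPKM in shCtrl was 8.48 with vehicle, 3.00 with TTX and 18.7 with BIC. Adcy1, another calcium-stimulated cyclase, had the largest fall with BIC, by 1.00 (SE 0.06, adjusted p = 1.54e-52). It also fell with TTX, by 0.91 (SE 0.06, adjusted p = 4.32e-50). Rps6ka5, which encodes the CREB kinase MSK1, had the largest rise with TTX, by 0.81 (SE 0.06, adjusted p = 5.22e-42). Prkar2a, a regulatory subunit of protein kinase A, had the largest rise with BIC, by 1.58 (SE 0.06, adjusted p = 5.11e-168). Its pooled FPKM in shCtrl was 13.7 with vehicle and 44.1 with BIC.

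The nearest relatives of Sik1 followed its direction. Of 6 genes for further coactivators and SIK relatives, TTX lowered Sik2 and Sik3 and raised Taf4a, and BIC raised 4 and lowered 0, with Ep300 just under the threshold. The background was again 15.5% higher and 17.5% lower with TTX and 22.4% and 23.6% with BIC. The median of the 6 was 0.04 with TTX and 0.33 with BIC, against 0.01 and -0.00324 over all genes. Sik2 fell by 1.23 (SE 0.07, adjusted p = 1.13e-58) with TTX and rose by 1.83 (SE 0.08, adjusted p = 3.28e-117) with BIC. Its pooled FPKM was 8.34 with vehicle, 7.24 with TTX and 37.0 with BIC, so the fall was small on that scale, and the gene Ppp2r1b overlaps it. Sik3 fell by 0.75 and rose by 1.34. Taf4a, a subunit of the general factor TFIID, rose by 0.20 (SE 0.06, adjusted p = 2.83e-03) with TTX. The coactivator genes Crebbp and Ep300, which encode the acetyltransferases CBP and p300, stood at 0.02 and 0.06 with TTX and at 0.55 and 0.11 with BIC.

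Of 11 further CREB- and ATF-like genes TTX raised 2 and lowered 2 (median -0.06), and BIC raised 2 and lowered 3 (median -0.04). These counts are near the background of 15.5% higher and 17.5% lower with TTX and 22.4% and 23.6% with BIC. Atf6, the endoplasmic reticulum stress sensor, rose by 1.33 (SE 0.05, adjusted p = 6.82e-135) with BIC, and its pooled FPKM was 6.67 with vehicle and 11.9 with BIC. Crebl2 fell by 1.07 (SE 0.12, adjusted p = 1.92e-17) with BIC and rose by 0.61 (SE 0.10, adjusted p = 1.87e-08) with TTX, although its pooled FPKM was 4.50 with vehicle and 4.21 with TTX. Crebzf had the largest fall with TTX, by 0.36 (SE 0.08, adjusted p = 3.49e-05).

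Most genes known as CREB targets fell with TTX and rose with BIC. Of 26 such genes TTX averaged over arms lowered 22 and raised 0, with a median of -1.70, and BIC raised 22 and lowered 2, with a median of 1.06, against medians of 0.01 and -0.00324 over all genes. Of all genes 17.5% were called lower and 15.5% higher with TTX, and 22.4% higher and 23.6% lower with BIC. This list, like the other gene lists here, was chosen with earlier results of these data known. Its counts are therefore a description and no independent test. Npas4, an activity-induced transcription factor, fell by 3.58 (SE 0.16, adjusted p = 2.39e-108) with TTX, and its pooled FPKM went from 928 with vehicle to 50.0. Pdyn, the prodynorphin gene, rose by 4.38 (SE 0.19, adjusted p = 4.64e-110) with BIC averaged over arms. Its pooled FPKM in shCtrl was 0.483 with vehicle and 5.05 with BIC, a smaller rise on that scale. Egr1, an immediate early gene, fell with both drugs, by 2.09 with TTX and by 0.68 (SE 0.09, adjusted p = 1.75e-12) with BIC, at 1009 FPKM with vehicle, 201 with TTX and 581 with BIC. Per1, a clock gene, was the other of the 2 that fell with BIC, by 0.20. In shRai1 with vehicle 5 of 25 tested targets were called lower, with a median of -0.41, beside 0.857% of all genes in either direction, and these were Egr1, Scg2, Penk, Gadd45g and Rgs2 in the authors' deposited table. With TTX and BIC 0 of 26 were called, with medians of 0.03 and 0.11, at DESeq2's adjusted p, beside 0.0283% and 0.00944% of all genes. The difference of responses was called for 3 targets with TTX (Scg2, Penk and Rgs2), beside 0.943% of all genes, and for 1 with BIC (Scg2), beside 0.0219%. The oligodendrocyte precursor markers fell in the same vehicle comparison, as given above, and their part in these calls was not tested.

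Of 14 genes known as ATF4 targets or stress partners TTX lowered 6 and raised 1 (median -0.17), beside 17.5% lower and 15.5% higher of all genes. BIC raised 10 and lowered 3 of them (median 0.57), beside 22.4% and 23.6%. Ppp1r15a, a phosphatase subunit that ends the stress response, fell by 0.65 (SE 0.12, adjusted p = 5.03e-07) with TTX, and Cebpb, a transcription factor that pairs with ATF4, rose by 0.98 (SE 0.12, adjusted p = 2.33e-14) with BIC. Ddit4, an inhibitor of mTORC1 signalling, ran opposite to most of the list, with a rise by 0.64 (SE 0.07, adjusted p = 2.93e-18) with TTX and a fall by 0.73 (SE 0.08, adjusted p = 1.93e-19) with BIC. Trib3 was called lower in shRai1 with vehicle (-0.56, adjusted p = 0.0428), and stood at 0.34 with TTX and -0.10 with BIC (adjusted p = 1.00 for both), in the authors' deposited tables. Its TTX response differed between arms by 0.90 (SE 0.21, adjusted p = 0.00580), the only such call among the 14. Of all genes 0.857% were called in the vehicle comparison and 0.943% in the difference of TTX responses. The oligodendrocyte precursor markers moved in both of these comparisons, and their part in the values of Trib3 was not tested.

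**Figure D5:**
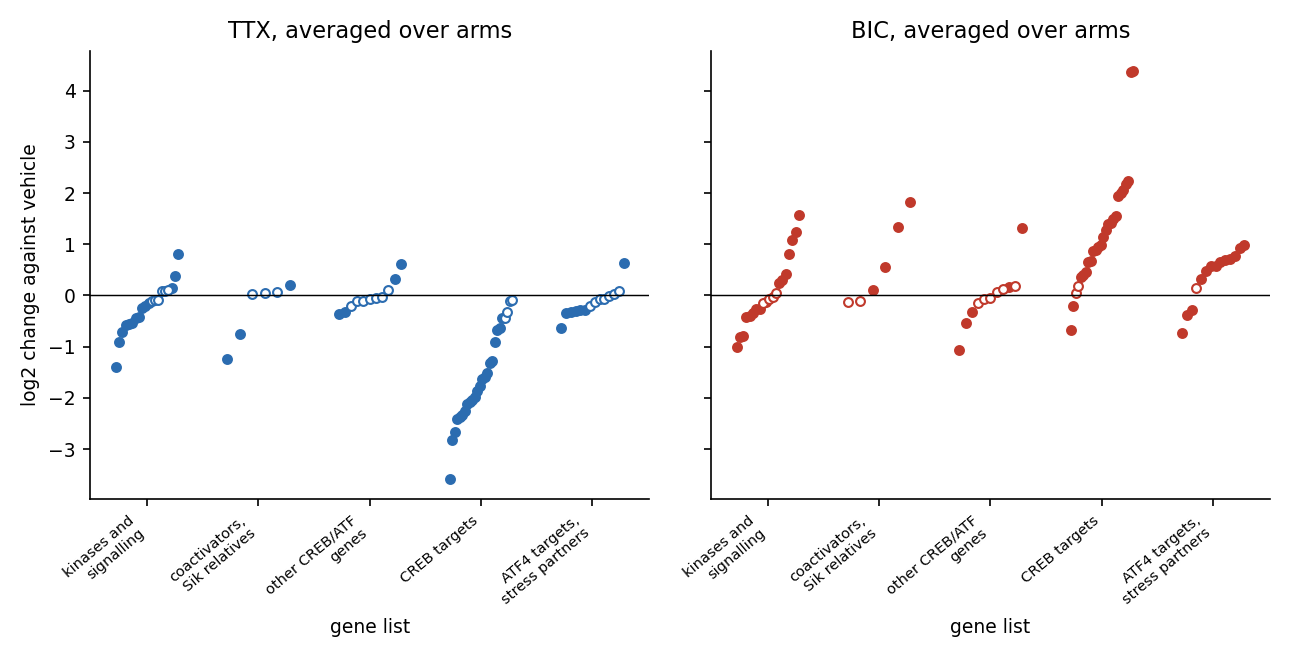
Log2 change averaged over arms for TTX (left) and BIC (right), with 1 point per gene of the 5 pathway lists, sorted within a list and filled where the adjusted p was under 0.05. CREB targets reach -3.58 with TTX and 4.38 with BIC, where Egr1 and Per1 lie below 0. The other lists scatter on both sides of 0 with both drugs.

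The genes with the nearest pattern over the 4 drug responses (TTX and BIC in both arms) were sought by Euclidean distance among 12323 other genes whose mean normalized count reached 50. For Sik1 the nearest 3 were Mlip (distance 0.154), Stc2 (0.165) and Lbh (0.178). Mlip, for example, stood at -1.44 and -1.26 with TTX and at 0.72 and 0.97 with BIC, in shCtrl and shRai1, in the authors' deposited tables. For Crem they were Itgb8, an integrin subunit gene (0.127), Tfg (0.158) and Slc2a3, which encodes a neuronal glucose transporter (0.167). For Atf3 the nearest were Cyr61 (0.424), Scg2 (0.579) and Gadd45g (0.624), the last 2 of which are also among the CREB targets counted here. Crtc1, with its small opposite changes, had close neighbours in Arl6ip6 (0.0336), B4galnt1 (0.0514) and Slc26a2 (0.0679).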

How the data were processed

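Nascent RNA of 16 Bru-seq libraries in 6 groups was analysed from the authors' summaries, and the 12 ChIP samples were not used here. Single-end reads of 50 bp kept the strand, per the labels' protocols. TopHat2 2.1.0, Bowtie2 2.2.6, DESeq2 (no version) and build mm9 are named in the submitters' processing notes. The authors deposited 7 comparison tables from 1 fit, each with a mean normalized count (a signal over all libraries), a log2 change, its standard error, a Wald score and p-values, per the file headers. The authors also deposited FPKM pooled by condition with bounds. Values per library and depths are not given in the sources used here, so precision rests on the deposited standard errors. P-values then measure only the spread between these libraries, which may be technical.

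The knockdown table in vehicle has no gene names, and 20107 of 21192 genes were named by their unique mean count, with log2 changes closing within 1e-09. Calls have an adjusted p under 0.05. Combined contrasts were computed from the deposited changes with Python 3.11.15, pandas 2.3.3, numpy 2.4.6 and scipy 1.17.1. Each had a two-sided Wald test, Benjamini-Hochberg adjusted over 18241 named genes whose mean FPKM over conditions reached 0.1. Knockdown FPKM columns entered only that mean. The Wald tests were tried on data simulated with the deposited standard errors, which cannot check those errors. In the simulated spans, 0.665% (shCtrl) and 0.571% (shRai1) of unchanged genes had an unadjusted p under 0.05, so the span test was conservative there. The 10 genes, the 5 gene lists and the 5 marker lists were chosen with earlier results of these data known. From each list the text names the called genes with the largest rise and fall per drug, and for Sik1, Crem, Atf3 and Crtc1 the 3 genes with the nearest pattern. Sik3, Crebbp, Ep300, Per1, Scg2, Penk, Gadd45g, Rgs2, Trib3 and single marker genes were named after their values were seen. Alternatives were other thresholds, other filters, centring on the median, another error for the span and FPKM ratios.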

Additional observations from a re-analysis of the deposited data

How the results depend on the processing

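The count of called genes among the 10, both directions together, stayed within 1.5 times its main value under each alternative run. Counts in 1 direction did not: the 1 gene lower with BIC in shCtrl became 0 at an adjusted p of 0.01 and under centring. A count of 1 became 2 at 0.1 for genes lower with BIC in shRai1, higher with TTX over both arms and lower in the shRai1 span, and with the shared vehicle variance taken out for genes lower in the span of either arm. Of 720 values of single genes under alternatives with a test, 706 kept their direction and their side of the threshold, 4 fell short of it, 7 came to pass it and 3 changed sign. The sign changes came from centring on the median of genes whose mean normalized count reached 50, where the median farthest from 0 was -0.0438: Creb1 with BIC in shCtrl became 0.0111, the BIC difference between arms of Atf2 became -0.00230 and the span difference of Crtc3 became -0.00327. None of the 3 was called. At an adjusted p of 0.01 the calls of Crtc1 with BIC in shCtrl, Atf1 with TTX in shRai1 and the Crtc3 span in shRai1 were lost, and at 0.1 Crtc2 was gained with BIC in shRai1, with TTX over both arms and in the shRai1 span. Crtc2 made the count of genes lower in the shRai1 span 2 as well among genes with a count of at least 50 (adjusted p = 0.0480). Of 40 log2 ratios of pooled FPKM 19 lay within 1 standard error of the deposited change and 21 lay outside it. The ratio had the other sign for uncalled changes of Atf1 with TTX (0.23), Atf2 with TTX (0.00385) and BIC (0.14) and Crtc2 with BIC (0.31), at a pseudocount of 0.1. No paired analysis was possible because the files used hold summaries over replicates, and leaving out single replicates was not run for the same reason. Without depths, the standard errors alone limit what could be detected.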

Other observations

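The knockdown columns of the pooled FPKM table were not used as values of a treatment, because their names do not follow the deposited comparisons. Across 11836 genes the log2 ratio of FPKM and the deposited log2 change had a Pearson r of 0.776 for TTX and 0.781 for BIC in shCtrl, and by column name of -0.651 for TTX and 0.274 for BIC in shRai1. These are correlations across genes, which are not independent replicates, and are given as a description. The knockdown column named for TTX held the highest value of Atf3, at 75.0 FPKM, against 2.89 in the column named as untreated and 8.83 in that named for BIC. Sik1 stood at 81.0, 17.5 and 41.0 FPKM in the same 3 columns, Crem at 10.7, 4.35 and 6.68, and Atf4 at 268, 139 and 214. In the authors' deposited shRai1 comparisons each of these genes was called higher with BIC and lower with TTX. Which column holds which treatment was not settled.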
